A study of Mus musculus with 6 samples.

Results

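The oxytocin and vasopressin system was followed through 4 genes in the nucleus accumbens core of male mice. They are the peptide precursor genes Oxt and Avp and the receptor genes Oxtr and Avpr1a, chosen by gene symbol out of 24532 genes in the deposited table. All 4 were present, each with 1 transcript, and all 4 passed the filter on low counts. The study sequenced messenger RNA from 3 ethanol and 3 control samples of wild-type mice, grouped by their titles. Per the labels, mice aged 35 to 55 postnatal days were trained to fear a context, given 1 day of binge-like ethanol, taken through extinction trials and then given alcohol to drink every other day for 27 days. The labels set tissue collection 24 h after that drinking assay, in control and ethanol samples alike. The binge was 6 intraperitoneal injections of 20% v/v ethanol in saline over 6 h, at 1.8 g/kg for the first injection and 1.2 g/kg for the later ones. The treatment field read ethanol exposure for the control samples too, and the injections of the controls were not described. Whether samples came from separate animals is not stated. P-values here thus reflect sample-to-sample spread, part of which could be technical.

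Oxytocin and vasopressin are small amidated peptides made by neurons of the hypothalamus, chiefly in the paraventricular and supraoptic nuclei. Each is cut from a precursor that also holds a neurophysin, the protein that carries the hormone in its vesicle. The peptides enter the blood through the posterior pituitary, and axons also release them within the brain. In the nucleus accumbens, the ventral striatal centre of reward learning, oxytocin receptors take part in social reward. Oxtr and Avpr1a encode receptors that act through Gq proteins, phospholipase C and calcium release.

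Oxt and Avp are neighbours on mouse chromosome 2 that point towards each other. In the mm10 coordinates of the table, Oxt spans chr2:130576169-130577053 and Avp spans chr2:130580620-130582588, with 3566 bases between them. Oxtr spans chr6:112473684-112489808 and Avpr1a spans chr10:122448499-122453453. In the GENCODE M21 annotation of the same build (GRCm38), Oxt lies on the plus strand and Avp on the minus strand. The 9 codons of each hormone lie in exon 1, and they are shown here because they are what sets the peptides apart. They are read 5′ to 3′ on the strand of the gene, with the bases that differ between the genes in capitals.

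Oxt hormone codons, chr2:130576267-130576293: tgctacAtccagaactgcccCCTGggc

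Avp hormone codons, chr2:130582446-130582472: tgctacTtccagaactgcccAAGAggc

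The hormone codons differed at 5 of 27 bases and in 3 codons, of which 2 encode a different amino acid. Exon 2, which encodes most of the neurophysin, was far more alike, at 193 of 202 bases (95.5%). It is shown because reads from it bear on how counts are divided between the genes. Capitals again mark the bases that differ.

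Oxt exon 2, chr2:130576591-130576792: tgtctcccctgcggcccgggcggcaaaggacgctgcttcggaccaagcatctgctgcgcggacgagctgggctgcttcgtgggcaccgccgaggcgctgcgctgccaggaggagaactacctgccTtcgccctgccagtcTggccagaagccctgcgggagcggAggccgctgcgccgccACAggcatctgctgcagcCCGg

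Avp exon 2, chr2:130581056-130581257: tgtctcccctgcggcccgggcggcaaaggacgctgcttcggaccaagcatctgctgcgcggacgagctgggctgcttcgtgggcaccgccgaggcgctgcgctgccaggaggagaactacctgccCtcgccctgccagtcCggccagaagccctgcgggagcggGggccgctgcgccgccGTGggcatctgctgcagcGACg

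The first 125 bases of exon 2 were identical, and with the end of exon 1 the shared run reached 127 bases. Of the 50-base windows of the transcripts, 16.0% of those of Oxt and 14.8% of those of Avp occurred in the other gene. Of the 100-base windows, 6.4% of those of Oxt and 5.9% of those of Avp did, and of the 150-base windows 0. The read length was not given in the sources used here, so part of the reads of this pair may have been assigned to the wrong gene. The longest run shared by the Oxtr and Avpr1a transcripts was 23 bases.

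The libraries held 36197592 to 67399599 estimated reads in ethanol and 35898026 to 55672232 in control. By these totals, without the TMM scaling of the other CPM values, 3 reads stood for 0.0445 to 0.0836 CPM. That limit covers counting error only. Control 2 stood apart with 15924 genes detected, where the other 5 libraries had 17096 to 17707. The tissue label was checked against marker genes. The 12 markers of medium spiny neurons, the main cells of the striatum, summed to 2178 to 4021 CPM in ethanol and 1968 to 2377 CPM in control, and none was at 0 in any library. Markers of cortical glutamatergic neurons summed to 20.1 to 74.6 CPM in ethanol and 76.3 to 332.5 CPM in control, without overlap. Of the 6 tested genes of this list, only Slc17a7 had all ethanol libraries below all control libraries. It stood at 24.7, 9.42 and 55.95 CPM in ethanol, against 288.6, 58.2 and 102.4 CPM in control. Of the 7 genes only Emx1 was at 0, in control 2. The 6 meningeal fibroblast markers, none at 0, summed to 23.5 to 27.7 CPM in ethanol and 28.4 to 47.95 CPM in control, also without overlap. The 5 choroid plexus markers summed to 5.54 to 6.23 CPM in ethanol and 5.72 to 404.3 CPM in control. The high value was control 3, where Ttr, the transthyretin gene, stood at 394.4 CPM, and Kcnj13 was at 0 in ethanol 2 and ethanol 3 and Folr1 and Aqp1 in control 2. Ttr and Kcnj13 had all ethanol libraries below all control libraries, as did 8.41% of all genes tested. Kcnj13 was low throughout, at 1.78 CPM or less. The part of such differences in tissue make-up in the values below was not tested. In bulk tissue, fewer cells of a type and less RNA per cell cannot be told apart.

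Both peptide transcripts were abundant per length, and they varied widely from sample to sample within each group. Oxt was read at 745, 948 and 1514 estimated reads in ethanol 1, ethanol 2 and ethanol 3, and at 4551, 990 and 923 in control 1, control 2 and control 3. Scaled to 1000000 reads of a library after TMM adjustment (CPM), Oxt stood at 11.9, 23.1 and 40.6 in ethanol, against 79.0, 25.7 and 25.2 in control. Control 1 was the highest library and ethanol 1 the lowest, and the groups overlapped because ethanol 3 lay above control 2 and control 3. The mean was 25.2 ± 14.5 CPM in ethanol and 43.3 ± 30.9 CPM in control (SD, n = 3 each), and the log2 fold change was -0.79 (SE 0.51, 95% interval -1.94 to 0.36). This difference did not pass edgeR's quasi-likelihood test (adjusted p = 0.59, Benjamini-Hochberg over 15774 genes). It rested on control 1, since without that library the log2 fold change was -0.02 (adjusted p = 0.99).

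Avp was read at 918, 1142 and 1924 estimated reads in the ethanol libraries and at 2226, 2763 and 1277 in the control libraries. Its level was 14.6, 27.8 and 51.6 CPM in ethanol 1 to ethanol 3, against 38.6, 71.8 and 34.9 CPM in control 1 to control 3. Here control 2 was the highest library, ethanol 1 was again the lowest, and the groups overlapped through ethanol 3. The mean was 31.4 ± 18.8 CPM in ethanol and 48.5 ± 20.3 CPM in control (SD, n = 3 each). The log2 fold change of -0.63 (SE 0.42, 95% interval -1.58 to 0.32) did not pass (edgeR adjusted p = 0.60). It was -0.23 without control 2, -0.29 without ethanol 1 and -1.19 without ethanol 3, and none of these passed.

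Because of the shared exon, Oxt and Avp were also counted as a single gene. Their reads came to 26.5, 50.9 and 92.3 CPM in ethanol 1 to ethanol 3, against 117.6, 97.5 and 60.2 CPM in control 1 to control 3. Ethanol 3 lay above control 3, so the summed values still overlapped. The log2 fold change of the sum was -0.70 (SE 0.40, 95% interval -1.61 to 0.21), which did not pass (edgeR adjusted p = 0.55).

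The receptor gene Oxtr had the clearest separation of the 4. It was read at 604, 315 and 344 estimated reads in ethanol and at 319, 200 and 186 in control. Its level was 9.62, 7.67 and 9.23 CPM in ethanol 1 to ethanol 3, against 5.54, 5.20 and 5.09 CPM in control 1 to control 3. Each ethanol library lay above each control library, and the control libraries lay within 1.09-fold of each other. The mean was 8.84 ± 1.03 CPM in ethanol and 5.27 ± 0.23 CPM in control (SD, n = 3 each), and the log2 fold change was 0.75 (SE 0.21, 95% interval 0.28 to 1.21). Its unadjusted p was 0.0053, and it did not pass over all genes (edgeR adjusted p = 0.42).

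Markers of medium spiny neurons and of the septum and basal forebrain had the same sign as Oxtr in most cases, and 0 of them passed. That sign was not particular to them, and over all genes tested 52.7% of log2 fold changes were positive. Of the 12 medium spiny neuron genes, 11 had positive and 1 a negative log2 fold change, with a median of 0.42 against 0.02 over all genes tested. Drd2, the dopamine D2 receptor gene, stood at 55.1, 35.8 and 35.6 CPM in ethanol, against 23.3, 25.3 and 20.9 CPM in control, a log2 fold change of 0.86 (edgeR adjusted p = 0.42). That was the highest log2 fold change of this list, and the lowest was -0.05. All 6 genes of the septum and basal forebrain had positive log2 fold changes, with a median of 0.56. They summed to 60.1 to 97.5 CPM in ethanol and 50.1 to 62.7 CPM in control, and none was at 0 in any library. The 8 striatal interneuron genes had 5 positive and 3 negative log2 fold changes, with a median of 0.11. The 6 cortical glutamatergic genes tested had 1 positive and 5 negative, with a median of -1.27. Astrocyte genes had 5 positive and 1 negative (median 0.24), microglia genes 3 and 1 (0.27) and endothelial genes 3 and 1 (0.14). Oligodendrocyte genes had 1 positive and 4 negative (-0.08), choroid plexus genes 1 and 4 (-0.65) and meningeal fibroblast genes 0 and 6 (-0.45). In these lists too, 0 passed. The part of all these markers in the values of Oxtr was not tested.

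Of the 15774 genes tested, 0% passed in either direction by edgeR (smallest adjusted p 0.41). Before adjustment, 5.31% of genes stood higher in ethanol with a p under 0.05 and 5.34% lower, 1681 genes in all, and Oxtr was the only gene of the 4 among them. The groups stood fully apart with ethanol above in 9.35% of genes, and with ethanol below in 8.41%. The separation of Oxtr is therefore a pattern that many genes of this comparison shared. With limma-voom the count was 0 too, and 1751 genes had a p under 0.05 before adjustment. DESeq2 called 53 genes higher and 98 lower, and none of the 4 members was among them (Oxtr adjusted p = 0.11).

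Avpr1a, the vasopressin V1a receptor gene, was the lowest of the 4. It was read at 220, 72 and 86 estimated reads in ethanol and at 107, 87 and 67 in control. Its level was 3.51, 1.75 and 2.31 CPM in ethanol 1 to ethanol 3, against 1.86, 2.26 and 1.83 CPM in control 1 to control 3. Ethanol 1 stood above the rest, ethanol 2 was the lowest library, and the groups overlapped. The mean was 2.52 ± 0.90 CPM in ethanol and 1.98 ± 0.24 CPM in control (SD, n = 3 each), and the log2 fold change was 0.35 (SE 0.34, 95% interval -0.42 to 1.12). It did not pass (edgeR adjusted p = 0.72), and without ethanol 1 the log2 fold change was 0.03.

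**Figure D1:**
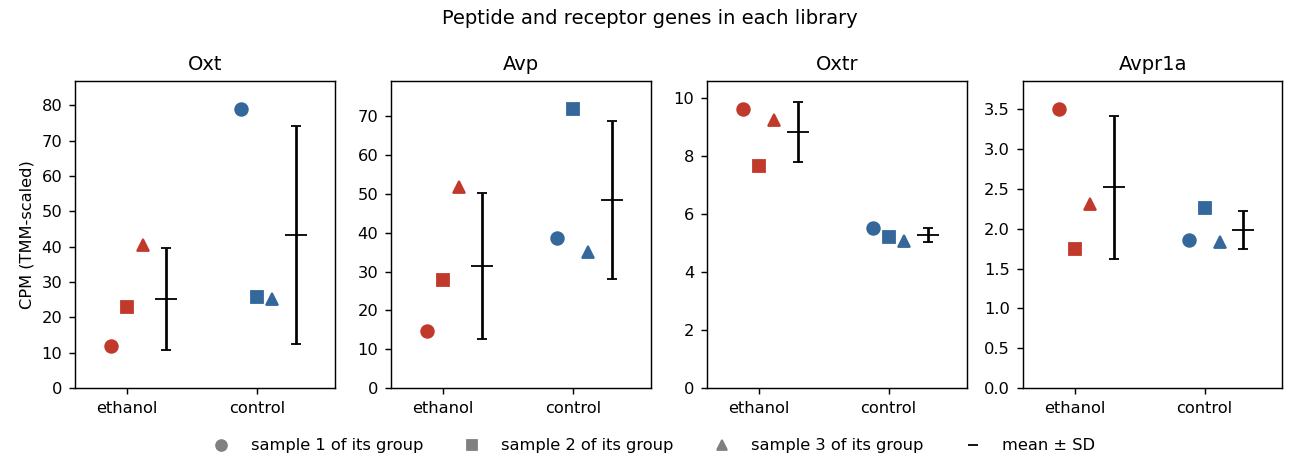
Level of Oxt, Avp, Oxtr and Avpr1a in CPM on TMM-scaled libraries, with a point per library (3 ethanol, 3 control) and the mean ± SD beside each group. Oxt in control 1 stands at 79.0 CPM above the other libraries, while all ethanol values of Oxtr (7.67 to 9.62 CPM) lie above all control values (5.09 to 5.54 CPM).

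The remaining vasopressin receptors were almost unread. Avpr2, the receptor of water retention in the kidney, had 0 reads in all 6 libraries. Avpr1b, the receptor known from the pituitary, had 2 reads in ethanol 1 and 0 in the other 5 libraries, which is under the floor of 3 reads, so no fold change is given. Neither was detectable at this depth.

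Levels of different genes were compared per length, by the deposited FPKM values (fragments per kilobase of transcript and per 1000000 reads) within each library. Oxt ranged from 16.7 to 125 FPKM over the 6 libraries and Avp from 18.1 to 101.5 FPKM. Oxtr ranged from 0.94 to 1.68 FPKM and Avpr1a from 0.52 to 0.99 FPKM. Among the genes tested, ranked by mean FPKM, Avp and Oxt stood at percentiles 91.5 and 91.3, and Oxtr and Avpr1a at percentiles 22.9 and 16.0. Avp and Oxt changed places, Oxt being the higher in control 1 alone, and did not differ beyond their spread. Oxtr lay above Avpr1a in each of the 6 libraries, by 1.61, 2.57 and 2.35 times in ethanol 1 to ethanol 3, against 1.74, 1.35 and 1.63 times in control 1 to control 3.

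The spread between samples also set the peptides apart from Oxtr. The biological coefficient of variation, which edgeR estimates within groups, was 0.43 for Oxt and 0.36 for Avp, at percentiles 90.9 and 85.1 of the genes tested. It was 0.31 for Avpr1a, at percentile 78.3, and 0.21 for Oxtr, at percentile 50.7. The value over all genes was 0.252.

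Ratios between genes of the same library do not depend on how libraries are scaled to each other. Of the reads of Oxt and Avp together, Oxt held 44.8% (95% Wilson interval 42.4 to 47.2), 45.4% (43.2 to 47.5) and 44.0% (42.4 to 45.7) in ethanol 1 to ethanol 3. In control 1 to control 3 it held 67.2% (66.0 to 68.3), 26.4% (25.0 to 27.8) and 42.0% (39.9 to 44.03). The ethanol libraries gave nearly the same split although their summed level differed, whereas control 1 leaned to Oxt and control 2 to Avp. The intervals cover counting error only.

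The ratio of Oxt to Oxtr reads was 1.23, 3.01 and 4.40 in ethanol 1 to ethanol 3, against 14.3, 4.95 and 4.96 in control 1 to control 3. Each ethanol ratio lay below each control ratio, by a mean of -1.47 on the log2 scale. Avp had 4.17, 15.9 and 22.4 reads per Avpr1a read in ethanol, against 20.8, 31.8 and 19.1 in control, a mean log2 difference of -1.03 with overlapping groups, which was -0.30 without ethanol 1. Oxtr had 2.75, 4.38 and 4.00 reads per Avpr1a read in ethanol, against 2.98, 2.30 and 2.78 in control, a mean log2 difference of 0.45 with overlapping groups. By two-sided exact permutation tests the p-values were 0.1 for Oxt to Oxtr, 0.3 for Avp to Avpr1a, 0.3 for Oxtr to Avpr1a and 1 for Oxt to Avp. After adjustment over the 4 ratios none was under 0.4, and 0.1 is the smallest p that 3 samples against 3 can give. The ratios other than Oxtr to Avpr1a were added after the values of the genes had been seen.

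**Figure D2:**
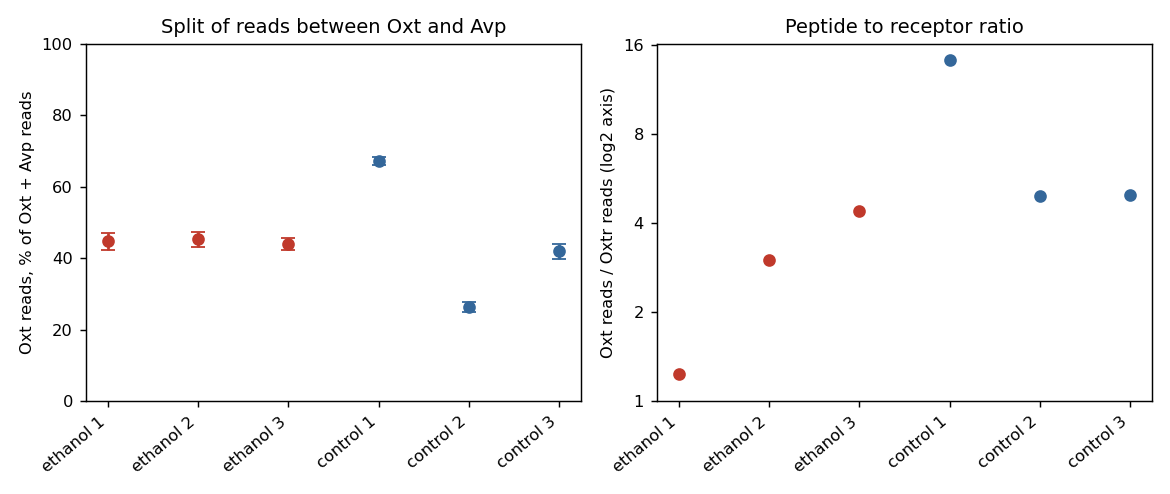
Left, share of Oxt in the reads of Oxt and Avp, with 95% Wilson intervals; right, ratio of Oxt to Oxtr reads on a log2 axis, for 3 ethanol and 3 control libraries. The share lies between 44.0% and 45.4% in ethanol and between 26.4% and 67.2% in control, and the ratio is at most 4.40 in ethanol and at least 4.95 in control.

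Signs of the differences were compared across fits that each left out 1 library. Oxtr lay between 0.68 and 0.83 on the log2 scale in the 6 fits, with adjusted p-values from 0.0732 to 0.93 by edgeR. Oxt lay between -1.31 and -0.02, Avp between -1.19 and -0.23, and Avpr1a between 0.03 and 0.54. The sign of each gene was thus kept, while the size of 3 of them depended on single libraries. Oxt without control 1 (-0.02, SE 0.41) and Avpr1a without ethanol 1 (0.03, SE 0.35) lay too near 0 to have a direction.

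**Figure D3:**
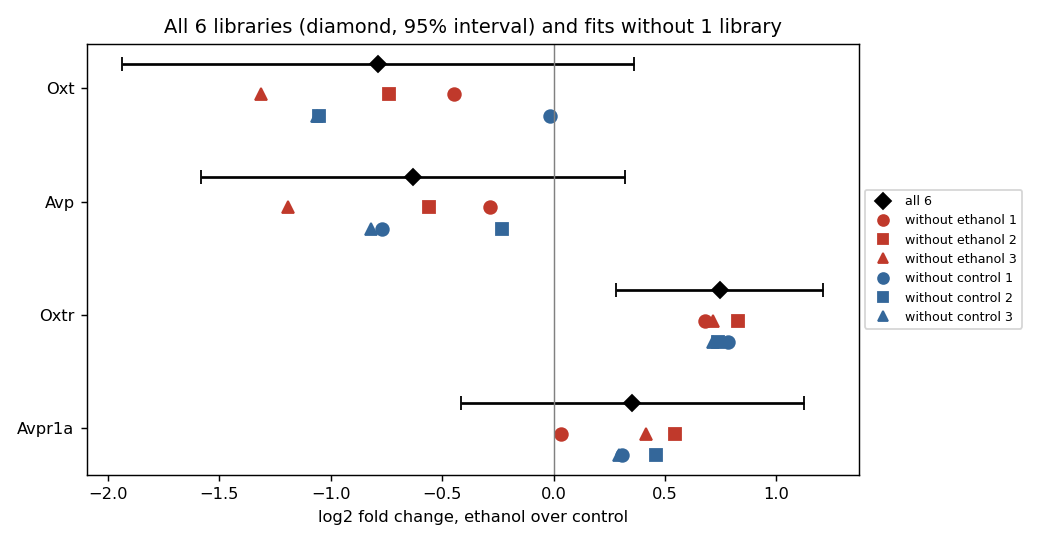
Log2 fold change of ethanol over control for the 4 genes, from all 6 libraries with its 95% interval (diamond) and from fits without each library (coloured points). Oxtr alone has an interval that leaves out 0 (0.28 to 1.21), and Oxt without control 1 falls at -0.02.

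Among genes that process, release or break down such peptides, 0 of 10 passed in either direction by edgeR, 8 had positive and 2 negative log2 fold changes, and the median was 0.33, against 0.02 over all genes tested. Over all genes, 52.7% of log2 fold changes were positive. Cadps2, a priming factor of dense-core vesicles that aids oxytocin release in mice, had the smallest p of the list. It stood at 59.0, 34.5 and 62.1 CPM in ethanol 1 to ethanol 3, against 33.4, 27.0 and 24.2 CPM in control 1 to control 3, a log2 fold change of 0.88 (SE 0.24, edgeR adjusted p = 0.42). Each ethanol library lay above each control library, with ethanol 2 close to control 1. Of the 10 genes of the list, 4 stood apart this way and 0 the other way, where over all genes 9.35% and 8.41% did. Pam, the enzyme that amidates the peptides, stood at 211.7 ± 39.7 CPM in ethanol and 148.1 ± 18.8 CPM in control (SD, n = 3 each), and its log2 fold change was 0.52. Pcsk2, a convertase that cuts peptide precursors, had a log2 fold change of 0.36.

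Among 24 genes of Gq signalling, through which both receptors act, 0 passed in either direction, 19 had positive and 5 negative log2 fold changes, and the median was 0.17. Itpr1, the inositol trisphosphate receptor that releases calcium from the endoplasmic reticulum, stood at 285.1, 134.2 and 214.7 CPM in ethanol, against 111.5, 115.9 and 88.99 CPM in control. Its log2 fold change was 1.003 (SE 0.26, edgeR adjusted p = 0.42), and the groups did not overlap. Grk5, a kinase that phosphorylates active receptors, stood at 14.65 ± 1.65 CPM in ethanol and 10.2 ± 0.26 CPM in control (SD, n = 3 each). Prkcb, a protein kinase C, had a log2 fold change of 0.49. The groups did not overlap in 5 of the 24 genes, each with ethanol above, where over all genes 9.35% stood apart that way and 8.41% the other way.

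Among 8 genes known to regulate Oxt or Avp, 0 passed in either direction, 5 had positive and 3 negative log2 fold changes, and the median was 0.33. Over all genes tested, 52.7% were positive. Caprin2, an RNA-binding protein that binds vasopressin mRNA in the rat hypothalamus, stood at 6.95, 5.75 and 11.9 CPM in ethanol, against 16.7, 16.0 and 18.1 CPM in control. Each ethanol library lay below each control library, with a log2 fold change of -1.05 (SE 0.27, edgeR adjusted p = 0.42). Caprin2 had the smallest p of the 8 and was the only 1 with its groups apart, where 8.41% of all genes stood apart that way. Otp, a homeobox factor needed for these neurons in mice, stood at 3.28, 0.73 and 4.08 CPM in ethanol, against 0.75, 1.82 and 0.46 CPM in control, with overlapping groups. Arnt2, a partner of the factor SIM1, had a log2 fold change of 0.44.

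**Figure D4:**
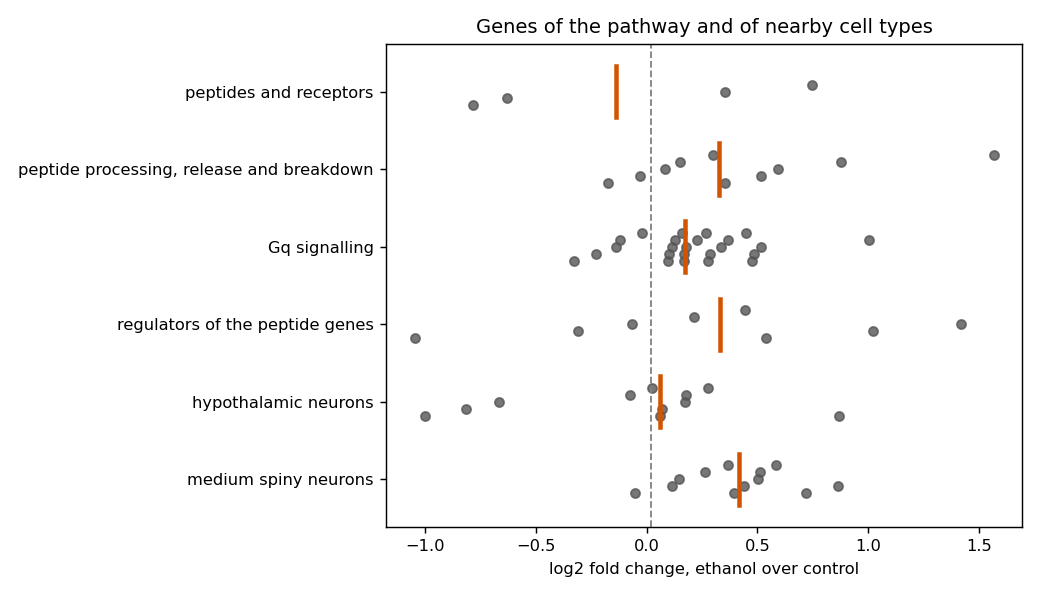
Log2 fold change of ethanol over control for each tested gene of 6 lists (points), with the list median (orange bar) and the median of all 15774 genes tested, 0.02 (dashed line). The medians are 0.33 for peptide processing, 0.17 for Gq signalling, 0.33 for regulators, 0.06 for hypothalamic neurons and 0.42 for medium spiny neurons, and no gene shown passed the test.

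Since Oxt and Avp are made by hypothalamic neurons, other genes of the hypothalamus were read beside them. The 13 genes of that list summed to 603.7 to 826.6 CPM in ethanol and 894.6 to 1212 CPM in control, without overlap between the groups. That separation rested on Pmch, since the other 12 genes summed to 369.5 to 433.8 CPM in ethanol and 330.6 to 447.6 CPM in control, with overlap. Pmch, the precursor of melanin-concentrating hormone, stood at 218.1, 392.8 and 355 CPM in ethanol, against 564, 764.2 and 605.2 CPM in control (log2 fold change -1.001, edgeR adjusted p = 0.42). Hcrt, the orexin precursor, stood at 331.8, 361.4 and 281.1 CPM in ethanol, against 262.5, 375.7 and 296.9 CPM in control. Control 2 held the most Avp, Pmch and Hcrt, and ethanol 1 the least Oxt, Avp and Pmch. Control 1, the library highest in Oxt, was the lowest in Hcrt.

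The other hypothalamic genes were far lower. Trh, which encodes thyrotropin-releasing hormone, stood at 24.1 to 47.6 CPM in ethanol and 27.6 to 34.8 CPM in control. Nr5a1, a factor of the ventromedial hypothalamus, had 0 reads in 5 libraries and Gnrh1 0 in ethanol 1, while Agrp and Rax stayed under 1 CPM in each library. The 13 genes had 7 positive and 4 negative log2 fold changes among the 11 tested, and 0 passed. The part of hypothalamic RNA in the levels of Oxt and Avp was not tested.

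**Figure D5:**
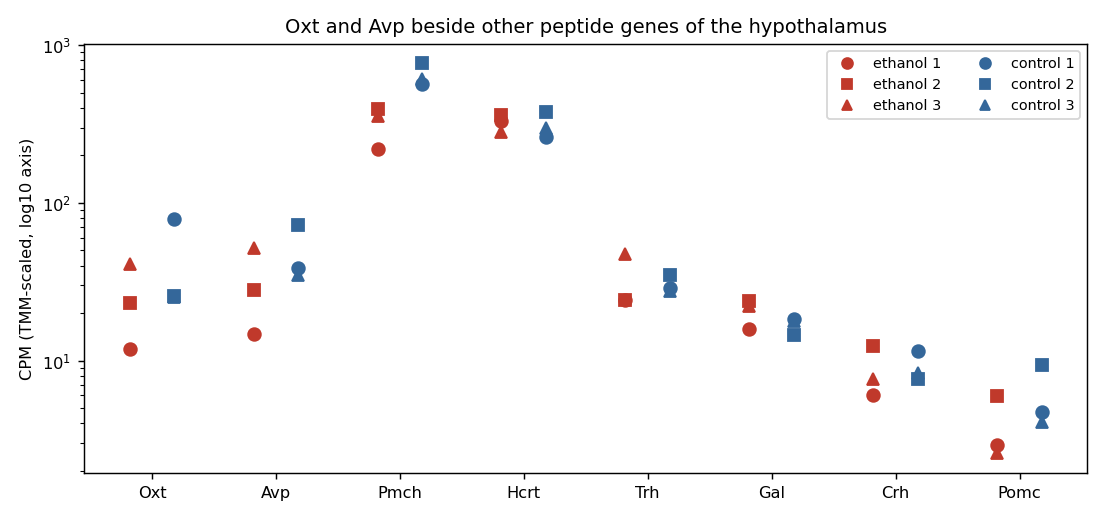
CPM of Oxt, Avp and 6 other hypothalamic peptide genes in each library, on a log10 axis, with ethanol left and control right for each gene. Pmch and Hcrt lie above Oxt and Avp in each library, and all ethanol values of Pmch (218.1 to 392.8 CPM) lie below all control values (564 to 764.2 CPM).

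For each of the 4 genes, the 5 genes most alike in pattern were taken by Pearson's correlation of log2 CPM over the 6 libraries, which share depth and composition. For Oxt they were Bmp8b (r = 0.99), G530011O06Rik (0.98), Mroh7 (0.98), Btbd10 (0.97) and Mir17hg (0.97). For Avp they were Gabpa, Naa30, Gmfb, Phex and Sec63, with r from 0.98 to 0.997. For Oxtr they were Klhl12, D10Wsu102e, Ikzf1, Gm973 and Cyfip1, with r from 0.985 to 0.99. For Avpr1a they were Mcc, Ephb6, Nfya, Atp1b2 and Mapk4, with r from 0.986 to 0.997. None of the 4 genes was among the 5 of another. Bmp8b, Mir17hg and Phex were low, at 0.0956 to 0.764, 0.143 to 0.555 and 0.143 to 0.650 CPM over the libraries. High values were common over so few libraries, since r was over 0.9 for 35 of 15773 genes with Oxt, 343 with Avp, 317 with Oxtr and 561 with Avpr1a.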

How the data were processed

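The authors deposited 1 table with a row per RefSeq transcript (36780 rows), holding estimated read counts and FPKM per sample, as the file headers say. Builds and tools named in the submitters' processing notes are mm10 and bcl2fastq. Neither aligner nor counter is given in the sources used here. Read counts as deposited were estimated counts in whole numbers, where the planned test had assumed raw counts: within 0.05 reads, 100% equalled FPKM times length and library size rounded up. Counts were summed by gene identifier to 24532 genes (10 identifiers carried 2 symbols). Whether counting used strand was not stated.

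Genes were kept with filterByExpr (minimum count 10), libraries were TMM-scaled, and groups were compared with edgeR 4.0.16 (glmQLFit, glmQLFTest, group only, R 4.3.3), two-sided, with Benjamini-Hochberg adjustment over all genes and a threshold of 0.05. A standard error is the log2 fold change over the square root of F. The test was also run on simulated counts drawn separately for each gene, with the spread that edgeR had fitted to these data. They do not model reads shared by Oxt and Avp, and they cannot show whether that fitted spread is right. Alternatives were DESeq2 1.42.0, limma 3.58.1, other scalings, filters, thinning, a replicate block, unsummed transcripts and leaving out each sample; summing Oxt with Avp and the hypothalamic sum without Pmch were added later. Sequences come from GENCODE M21. Figures used matplotlib 3.10.9.

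The 4 genes and all lists were chosen with earlier results of these data known. Named genes were the 4, the 3 genes of each pathway list with the smallest unadjusted p, and the 5 genes most alike in pattern to each of the 4. Pmch, Hcrt, the other hypothalamic genes named, Drd2, Slc17a7 and Ttr were chosen after their values were seen.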

Additional observations from a re-analysis of the deposited data

How the results depend on the processing

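The 4 genes kept their sign and stayed short of the threshold under each alternative run, though Oxt without control 1 and Avpr1a without ethanol 1 lay near 0. Apart from the fits without a sample, Oxt lay between -0.84 and -0.68 on the log2 scale, Avp between -0.77 and -0.61, Oxtr between 0.66 and 0.76 and Avpr1a between 0.26 and 0.36. The log2 difference of the Oxtr to Avpr1a ratio was 0.45 by FPKM and lay between 0.31 and 0.65 without each sample, that of Oxt to Oxtr between -1.87 and -0.95, and that of Avp to Avpr1a between -1.52 and -0.30. That of Oxt to Avp was 0.0006 with all samples, so its sign changed easily. It was 0.67 without control 1 and -0.59 without control 2, and lay between -0.08 and 0.02 without each other sample. What set control 1 and control 2 apart in this ratio was not tested.

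The count of genes called was 0 in edgeR, 151 with DESeq2 (53 higher and 98 lower), and from 0 to 211 without each sample: 201 higher and 10 lower without ethanol 2, 1 higher without control 1. Deviations of same-numbered samples correlated at 0.146, -0.031 and -0.0173. With 3 samples a group, these values cannot decide whether the numbers pair samples. With the replicate block 0 genes were called (1645 at an unadjusted p under 0.05, against 1681), ethanol 2 correlated best with control 3, and the log2 fold changes were -0.68 for Oxt, -0.76 for Avp, 0.74 for Oxtr and 0.30 for Avpr1a. Estimated counts, their split between Oxt and Avp, 3 samples a group and the 67 to 220 reads of Avpr1a limit the precision.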

Other observations

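The genes on either side of the Oxt and Avp pair were read as well. Mrps26, a mitochondrial ribosomal protein gene before Oxt, stood at 66.4, 105 and 57.6 CPM in ethanol 1 to ethanol 3, against 71.98, 70.5 and 70.7 CPM in control 1 to control 3 (log2 fold change 0.10, edgeR adjusted p = 0.89). Ubox5, a ubiquitin ligase gene after Avp, stood at 15.6, 12.9 and 13.4 CPM in ethanol, against 13.6, 11.1 and 15.7 CPM in control (log2 fold change 0.05, edgeR adjusted p = 0.94). Both were chosen by position, after the values of Oxt and Avp had been seen.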
